A study of Mus musculus with 12 samples.

Results

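Among the 30154 genes quantified in sorted mouse muscle stem cells, 86 lay highest at day 21 after muscle injury. They were chosen on expression in TPM, a measure of transcript abundance that scales reads by transcript length and library. In each of these genes the lowest of the 4 day 21 values was at least 2 TPM and at least 1.5 times the highest of the 8 values from days 0 and 7. Of the 10740 genes with a lowest day 21 value of at least 2 TPM, 929 (8.65%) had all 4 day 21 values above the 8 others, and the 86 members make up 0.801%. The same rule gives 116 genes for day 0 and 700 genes for day 7. Because the rule chose the members on day 21 against days 0 and 7, that difference is described below without a test.

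C57BL/6J mice aged 2 to 3 months gave the cells, which were purified by flow cytometry from the quadriceps, the gastrocnemius and the tibialis anterior of the leg. There were 6 groups of 2 libraries, wild type (WT) and Sestrin1,2 knockout (KO) before injury (day 0), 7 days after injury and 21 days after injury, and all 12 libraries were of sorted muscle stem cells. Sestrin1 and Sestrin2 are stress-induced proteins that restrain the growth kinase complex mTORC1. The labels name no kind of injury and no batch, and they do not say whether the 2 libraries of a group came from separate animals, so p-values measure the spread between these libraries, which may be technical.

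Muscle stem cells rest beneath the basal lamina of muscle fibres. After injury they enter the cell cycle and produce myoblasts that fuse into new fibres, and some of them later go back to rest. Return to rest is known to involve signals of the TGF-beta and Notch families, contact with the laminin-rich basement membrane, and a shift of metabolism away from the needs of dividing cells. Day 7 in such a course is a time of growth, and day 21 is a time when fibres are largely rebuilt.

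Total estimated counts ran from 28396862 to 38950614 per library, and the least counted member at day 21 still had 74 counts in its lowest library. Sesn2 contradicted the labels of 2 day 21 libraries. It stood at 2.10 and 2.65 TPM in knockout and 27.6 and 30.7 TPM in wild type at day 0, and at 0.984 and 0.791 TPM against 19.1 and 20.5 TPM at day 7. The day 21 libraries labelled knockout had 3.87 and 45.7 TPM and those labelled wild type 3.37 and 34.1 TPM, so every genotype statement about day 21 is by label. Sesn1 split the same libraries in the same way, with 19.3 and 34.9 TPM in those labelled knockout and 18.5 and 39.9 TPM in those labelled wild type. Markers of other cells were present in all libraries. The 12 markers of muscle stem cells summed to 655 to 979 TPM at day 0, 896 to 1141 TPM at day 7 and 1066 to 1763 TPM at day 21, with Pax7 between 3.14 and 19.2 TPM. Over the 12 libraries, 12 markers of fibro-adipogenic progenitors summed to 10730 to 21008 TPM (Dcn 2388 to 8071 TPM) and 9 of smooth muscle to 2663 to 10060 TPM, while 7 tenocyte markers summed to 4153 to 5242 TPM on days 0 and 7. At day 21 the tenocyte markers summed to 13721 and 12457 TPM in knockout replicates 1 and 2, 12896 TPM in wild-type replicate 1 and 5012 TPM in wild-type replicate 2, which stands apart. Ly6g was at 0 in every library, and Cd3e did not pass 0.200 TPM. None of the marker genes of 12 cell types is a member. Without passing the ratio of the rule, 3 of 7 tenocyte, 2 of 12 muscle stem cell and 1 of 11 endothelial markers had all 4 day 21 values above the 8 others. No gene of the other marker lists did, and the share of all genes was 8.65%. In bulk RNA a change in the share of cells of a type and a change of RNA per cell cannot be told apart.

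The 86 members together took 0.151% to 0.179% of all TPM in the libraries of days 0 and 7 and 0.406% to 0.505% at day 21. Their mean at day 21 was a median of 2.79-fold above day 0 and 2.65-fold above day 7, and 78 of the 86 were at least 2-fold above both days. The lowest day 21 value had a median of 17.2 TPM and a range of 2.31 to 292 TPM, with 29 members under 10 TPM and 8 at 100 TPM or more. The 4 day 21 libraries differed among themselves by a median of 1.38-fold from lowest to highest, and by at most 2.45-fold. The library labelled knockout replicate 2 was the highest of all 12 in 54 members, and the one labelled wild-type replicate 2 was the lowest of day 21 in 42. Near the threshold, Lama2 had a ratio of 1.5003 and Map3k2 one of 1.50033, while Prkab2 at 1.49587 and Nr1d2 at 1.49584 stayed outside.

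**Figure D1:**
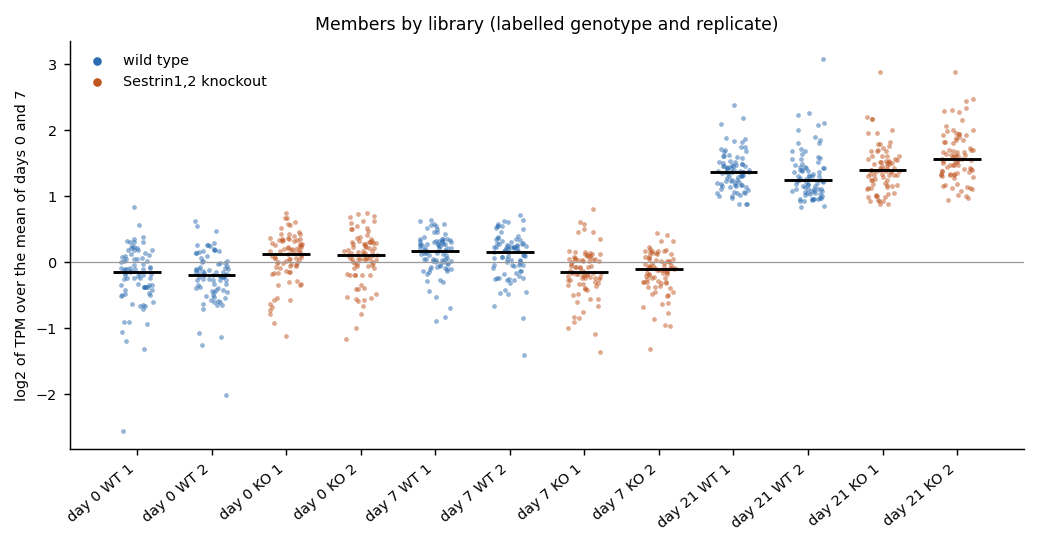
Each point is 1 of the 81 members whose counts reached 10 in all libraries, as the log2 of its TPM over its mean in the 8 libraries of days 0 and 7, by library with labelled genotype and replicate number, and bars are medians. The medians of the day 21 libraries reach up to 1.56 and those of the other libraries lie between -0.19 and 0.169, with knockout above wild type at day 0 and below it at day 7.

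Members of the TGF-beta and BMP family of signals include a ligand, a type I receptor, a co-receptor and a nuclear repressor. The ligand Gdf6, a bone morphogenetic protein, was at 0.699 to 1.248 TPM across the 8 libraries of days 0 and 7. The values of day 21 were 3.34 and 4.35 TPM in wild type and 6.70 and 3.17 TPM in knockout, a mean 5.57-fold that of day 0. The knockout libraries of day 21 lay on either side of the wild-type ones. Tgfbr3 (betaglycan, a co-receptor that presents TGF-beta ligands) was at 38.7 and 38.5 TPM in wild type and 70.1 and 70.2 TPM in knockout at day 0. It stood at 34.7 and 35.5 TPM (WT) against 26.6 and 21.5 TPM (KO) at day 7, and at 179.8 and 157 TPM (WT) against 189 and 228 TPM (KO) at day 21. Its day 21 mean of 189 ± 29.6 TPM (SD, n = 4) was 6.38 times that of day 7, and its lowest point of the course was in the knockout at day 7. Tgfbr1, the type I receptor kinase that passes the signal on, was at 13.7 to 21.5 TPM in the 8 earlier libraries and 38.7 to 54.5 TPM in those of day 21. Skil (SnoN, which represses SMAD-driven transcription and is itself a target of the pathway) was at 51.7 to 57.7, 47.8 to 67.3 and 121 to 155 TPM on the 3 days.

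Of a list of 38 genes of the TGF-beta and BMP pathway, Tgfbr1 and Tgfbr3 are members. All 4 day 21 values lay above the 8 others in 7 of the 32 listed genes that reached 2 TPM, against 8.65% of all genes. The 7 include both members, which meet this by the rule, and the counts of this and the other lists are descriptions. Of its 37 tested genes, 7 rose and 12 fell from day 0 to day 7 in wild type, and 9 rose and 16 fell in knockout. Of all genes 25.8% rose and 21.2% fell in wild type, and 24.7% rose and 22.2% fell in knockout. A list of 32 Wnt genes holds the members Lrp6 and Apc. Of its 23 genes at 2 TPM, 5, with both members among them by the rule, had all day 21 values above the rest, against the same 8.65%. Lrp6, a co-receptor for Wnt proteins, was at 4.93 to 7.65 TPM before and 13.7 to 19.4 TPM at day 21. Apc, part of the complex that marks beta-catenin for destruction, was at 4.32 and 6.02 TPM in wild type and 11.5 and 13.2 TPM in knockout at day 0, 7.54 to 10.4 TPM at day 7 and 23.8 to 28.7 TPM at day 21. Gli2, a transcription factor of Hedgehog signalling, was at 1.70 to 3.86 TPM at day 0, 1.19 to 2.01 TPM at day 7 and 6.89 to 8.60 TPM at day 21. It fell by 1.21 (SE 0.23, edgeR adjusted p 0.00178) from day 0 to day 7 in knockout, and its change in wild type was -0.37 (SE 0.23, edgeR adjusted p 0.217). The signalling members thus include inhibitors (Apc, Skil) as well as receptors of these pathways.

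Matrix and basement membrane genes form the next group of members. Loxl2, a lysyl oxidase that cross-links collagen, was at 14.5 and 13.9 TPM in wild type and 9.23 and 7.09 TPM in knockout at day 0, 19.8 and 22.9 TPM (WT) against 21.8 and 17.9 TPM (KO) at day 7, and 52.3 and 55.6 TPM (WT) against 62.0 and 63.7 TPM (KO) at day 21. Day 21 lay 5.22-fold above day 0, the knockout of day 0 was lowest, and no day overlapped another. Reads of Loxl2 are shared with the member Gm21451, an unprocessed pseudogene 128781 bases away on chromosome 14 that matches it at 100% over 2348 bases, so the split between them is uncertain. Smoc2, a secreted calcium-binding matrix protein, was the most abundant member by its lowest day 21 value, at 292 to 412 TPM against 138 to 163 TPM at day 0 and 109 to 121 TPM at day 7. Lama2, the laminin chain of the muscle basal lamina, was at 21.4 to 47.6 TPM before and 71.5 to 85.9 TPM at day 21. Col13a1, a transmembrane collagen of the neuromuscular junction, was at 3.395 to 6.18, 4.81 to 6.97 and 13.5 to 20.7 TPM.

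Col22a1, a collagen of the junction between muscle and tendon, was at 15.7 to 29.7 TPM before day 21. It stood at 108 and 133 TPM in the day 21 libraries labelled knockout and 80.8 and 54.4 TPM in those labelled wild type, the widest spread of any member within day 21. Its lowest day 21 value was in wild-type replicate 2, the library with the lowest tenocyte marker sum of that day, and the part of tenocytes in these values was not tested. Frem1, a basement membrane protein of epithelia, and Crispld1, a secreted cysteine-rich protein, were at 4.02 to 8.58 and 48.2 to 53.1 TPM at day 21 against 1.10 to 2.53 and 11.2 to 27.7 TPM before. Of 36 listed collagen and matrix genes, 22 rose and 6 fell from day 0 to day 7 in wild type and 22 rose and 4 fell in knockout, against the same shares of all genes as for the TGF-beta list. Among the 29 of them at 2 TPM, 3 had all day 21 values above the others, a share near the 8.65% of all genes.

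Adhesion, guidance and mechanical genes were also among the members. Piezo1, a stretch-gated ion channel, was at 4.93 to 7.84 TPM before day 21, at 15.5 and 16.3 TPM in wild type and 17.6 and 30.4 TPM in knockout at day 21. Flnc, the muscle filamin that cross-links actin, was at 18.3 to 23.9 TPM before and 50.2 to 75.4 TPM at day 21. Ahnak, a very large scaffold protein beneath the cell membrane, was at 45.4 to 68.6 and 139 to 277 TPM. In Piezo1, Flnc and Ahnak the knockout replicate 2 library was highest. F2r, the thrombin receptor, and Gna13, a G protein that couples to such receptors, reached 223 to 276 and 94.3 to 121 TPM. Robo1, a receptor for Slit guidance cues, was at 0.766 and 0.968 TPM in knockout and 1.55 and 1.67 TPM in wild type at day 0, 1.61 to 2.58 TPM at day 7 and 3.91 to 5.80 TPM at day 21. Tenm3, an adhesion protein known from synapses, was at 2.36 to 5.68 TPM before and ranged from 8.79 to 20.7 TPM at day 21.

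**Figure D2:**
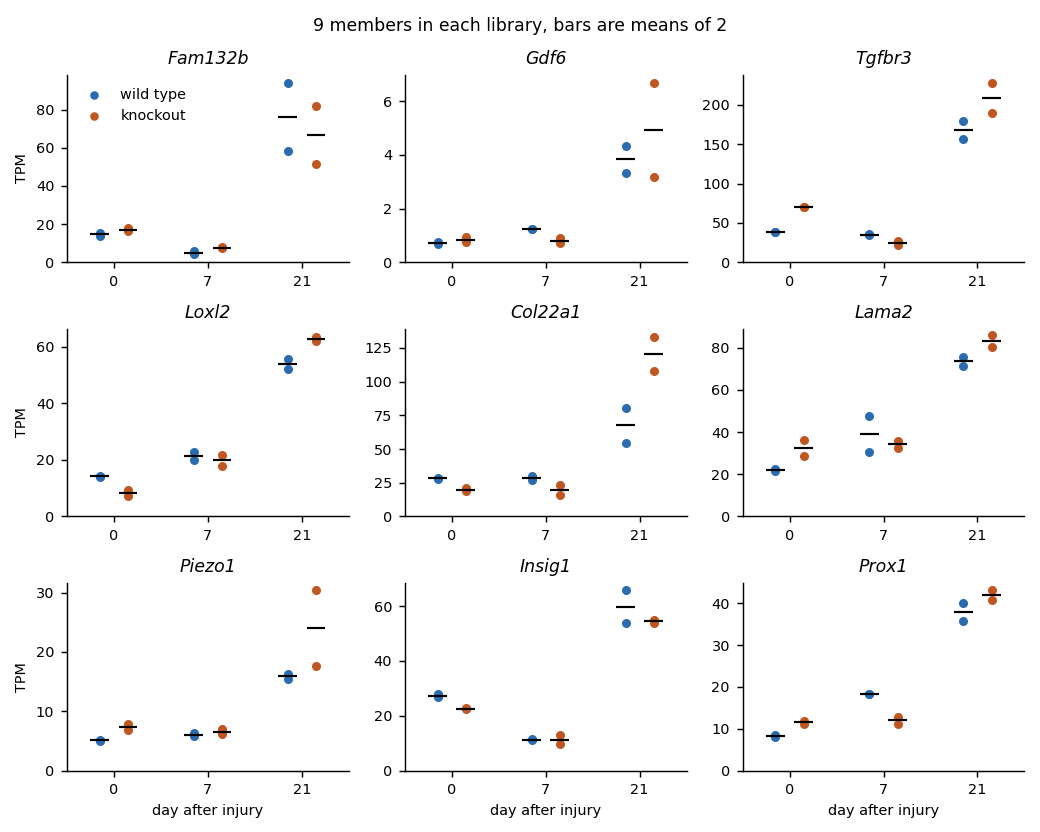
TPM (vertical axes, from 0) of 9 members by day after injury, with each library as a point, the labelled genotype in colour and the mean of 2 libraries as a bar. Each gene is highest in the 4 day 21 libraries, where Tgfbr3 lies between 157 and 228 TPM and Insig1 between 53.8 and 65.7 TPM.

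Sterol and lipid genes included Insig1 and Hsd17b7. Insig1 holds the sterol sensor SCAP in the endoplasmic reticulum and is itself induced by the sterol-responsive factor SREBP. Hsd17b7 carries out a late step of cholesterol synthesis. Insig1 was at 26.9 and 27.8 TPM in wild type and 22.7 and 22.5 TPM in knockout at day 0, 11.1 and 11.4 TPM (WT) against 9.68 and 12.8 TPM (KO) at day 7, and 53.9 and 65.7 TPM (WT) against 53.8 and 55.0 TPM (KO) at day 21. From day 0 to day 7, whose order the rule did not use, Insig1 fell by 1.504 (SE 0.13, edgeR adjusted p 1.21e-05) on the log2 scale in wild type and fell by 1.14 (SE 0.13, edgeR adjusted p 5.64e-05) in knockout. Hsd17b7 was at 15.2 and 17.5 TPM in wild type and 11.6 and 12.5 TPM in knockout at day 0, 8.58 to 10.6 TPM at day 7 and 27.2 to 34.7 TPM at day 21. It fell by 0.81 (SE 0.15, edgeR adjusted p 0.00151) in wild type by day 7, and its change in knockout was -0.36 (SE 0.15, edgeR adjusted p 0.0755), not past 0.05. In both genes the 4 libraries of day 7 lay below the 4 of day 0.

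The start regions of Insig1 and Hsd17b7 are shown because both members fell by day 7 in wild type and stood together at day 21, and that of Tgfbr1 because it is a receptor of the signalling group. Each is a RefSeq window of 250 bases before to 50 after a start of the gene in GRCm38.p6, written 5′ to 3′ on the gene's strand, with matches to the CCAAT box (CCAAT) and the GC box (GGGCGG) on either strand in capitals.
Insig1, chr5:28071162-28071461, plus strand: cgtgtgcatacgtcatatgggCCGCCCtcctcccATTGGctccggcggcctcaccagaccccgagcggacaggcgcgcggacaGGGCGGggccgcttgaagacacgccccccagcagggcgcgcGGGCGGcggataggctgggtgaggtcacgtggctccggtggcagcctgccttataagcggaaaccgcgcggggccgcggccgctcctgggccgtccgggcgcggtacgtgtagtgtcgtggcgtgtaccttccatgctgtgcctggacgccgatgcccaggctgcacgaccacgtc
Hsd17b7, chr1:169969156-169969455, minus strand: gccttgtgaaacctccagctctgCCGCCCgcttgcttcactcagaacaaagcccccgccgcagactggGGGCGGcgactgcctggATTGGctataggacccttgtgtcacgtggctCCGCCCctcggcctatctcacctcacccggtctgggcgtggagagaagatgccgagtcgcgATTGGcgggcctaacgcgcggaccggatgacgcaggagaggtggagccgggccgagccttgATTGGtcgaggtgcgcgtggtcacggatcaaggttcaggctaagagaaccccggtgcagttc
Tgfbr1, chr4:47352972-47353271, plus strand: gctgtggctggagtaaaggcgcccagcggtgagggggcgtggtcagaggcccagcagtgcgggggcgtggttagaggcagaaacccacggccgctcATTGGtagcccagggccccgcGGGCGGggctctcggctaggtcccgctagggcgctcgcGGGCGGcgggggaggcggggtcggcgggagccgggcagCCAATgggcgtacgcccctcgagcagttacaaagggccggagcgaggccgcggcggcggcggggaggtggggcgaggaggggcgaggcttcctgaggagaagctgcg
The Insig1 window held 4 such matches, that of Hsd17b7 6 and that of Tgfbr1 4, and their GC contents were 71.7%, 64.7% and 74.7%. A second Tgfbr1 window, chr4:47385966-47386265, is not shown; it held 1 match, a CCAAT box, and its GC content was 52%. A window was found for 58 of the 86 members. The GC box occurred in 43 of these (74.1%) and in 38.2% of 27025 genes with a window, and the CCAAT box in 34.5% against 41.1%. The cAMP response element (TGACGTCA) occurred in 5 members, Btaf1, Clasp2, Dnajc27, Pogk and Tenm3, which is 8.62% against 2.03%. An interferon-stimulated response element (GAAANNGAA) was found in 13.8% against 9.76%, a gamma-activated site (TTCNNNGAA) in 15.5% against 9.55%, and the core of the NRF1 site (GCGCATGC) in 1.72% against 3.05%. The 27025 genes include many that these cells do not express, and a match is a description of letters only.

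Other members act in lipids and in the secretory pathway. Gpam, the first enzyme of triglyceride synthesis, was at 0.459 and 0.669 TPM in wild type and 4.27 and 4.47 TPM in knockout at day 0. Wild type was the higher genotype for Gpam at day 7, with 4.02 and 4.13 TPM against 2.46 and 1.08 TPM in knockout. The 4 libraries of day 21 lay at 8.05 to 10.2 TPM. Sgms2, which makes sphingomyelin, was at 2.78 to 4.41 TPM before and 10.1 to 16.8 TPM at day 21. Atf6, a stress sensor of the endoplasmic reticulum, Edem3, which trims glycans of misfolded proteins, and Tgoln1, a protein of the trans-Golgi network, were at 21.4 to 30.6, 20.0 to 27.5 and 135 to 169 TPM at day 21. Lrp1, an endocytic receptor for lipoproteins and matrix proteins, was at 29.6 to 40.1 TPM at day 0, 22.5 to 28.5 TPM at day 7 and 70.6 to 93.4 TPM at day 21.

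Fam132b, now named Erfe, had the largest ratio among named protein-coding members, 2.88 between its lowest day 21 value and the highest of the rest. It encodes erythroferrone, a hormone known from red cell precursors that lowers hepcidin. Fam132b was at 13.8 and 15.5 TPM in wild type and 16.4 and 17.9 TPM in knockout at day 0, 6.03 and 4.21 TPM (WT) against 7.34 and 8.12 TPM (KO) at day 7, and 58.2 and 93.9 TPM (WT) against 51.4 and 82.2 TPM (KO) at day 21. Its highest value was in wild-type replicate 2, where 7 red cell markers summed to 1328 TPM, the lowest of day 21, against 2010 to 3552 TPM in the other 3 libraries of that day, and the part of red cells in these values was not tested. It fell by 1.76 (SE 0.25, edgeR adjusted p 3.42e-04) from day 0 to day 7 in wild type and fell by 1.46 (SE 0.25, edgeR adjusted p 9.00e-04) in knockout. Slc39a14, a zinc and iron importer, was at 24.5 to 48.3 TPM before and 72.9 to 119 TPM at day 21.

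Members of amino acid use, inflammation and the nucleus completed the described groups. Slc7a8, an amino acid carrier, was at 5.91 to 13.9 TPM before and 27.7 to 38.4 TPM at day 21. Tnfaip3 (A20, which switches off NF-kappaB signalling) was at 24.4 to 32.7 TPM at day 0, 11.96 to 19.4 TPM at day 7 and 50.3 to 69.8 TPM at day 21. It fell by 1.08 (SE 0.18, edgeR adjusted p 7.32e-04) by day 7 in wild type and fell by 1.08 (SE 0.18, edgeR adjusted p 6.98e-04) in knockout. Il17ra, the receptor for interleukin 17, stood at 0.976 to 1.70 and 3.404 to 4.04 TPM. Tab3, an adaptor of the kinase TAK1, was at 1.36 to 1.96, 2.24 to 4.44 and 6.94 to 11.3 TPM on the 3 days, which did not overlap. Ptprc, the pan-leukocyte CD45 gene, ran from 0 to 3.48 TPM in the 12 libraries.

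Prox1, a homeobox transcription factor known from lymphatic vessels and from slow muscle, was at 7.97 and 8.56 TPM in wild type and 11.2 and 11.8 TPM in knockout at day 0, 18.4 and 18.3 TPM (WT) against 12.9 and 11.1 TPM (KO) at day 7, and 35.9 and 40.1 TPM (WT) against 43.2 and 40.7 TPM (KO) at day 21. The 11 endothelial markers summed to 474 to 496 TPM at day 0, 191 to 545 TPM at day 7 and 240 to 433 TPM at day 21, and the part of endothelial cells in the Prox1 values was not tested. Ep300, a histone acetyltransferase, was at 5.33 to 8.09 TPM before and 13.9 to 20.9 TPM at day 21. It is the member of a list of 63 chromatin genes. Of the 55 of them at 2 TPM, 15, with Ep300 among them by the rule, had all day 21 values above the rest, against 8.65% of all genes. Other lists differed, with 8 of 27 for chemokines and cytokine signalling, 1 of them a member, and 0 of 21 for the cell cycle. The day 21 ratio rose with transcript length over all genes, as described below. The 8.65% is not matched for length, so this count and those of the other lists are descriptions. Nup153, a nuclear pore protein, and Ahctf1, which seeds pore assembly, were at 54.6 to 72.7 and 43.0 to 53.6 TPM at day 21 against 22.3 to 33.6 and 17.8 to 23.7 TPM before. In all, 8 of 23 pathway lists held 10 members, and 15 lists, among them the cell cycle, Notch and interferon lists, held none.

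The genotypes at day 0 were compared in a fit of all 12 libraries with edgeR's quasi-likelihood test. A gene is called where its p-value, adjusted by Benjamini-Hochberg over 15890 tested genes, is under 0.05. All 86 members were tested. In knockout, 28 members were higher (32.6%, against 14.8% of all genes) and 8 lower (9.3% against 12.6%), so 36 of 86 (41.9%) were called against a background of 27.4%. The median log2 fold change of the members was 0.27, and that of all tested genes was 0.00. The members higher in knockout included Mcc, a gene named for mutations in colorectal cancer, by 1.26 (SE 0.15, edgeR adjusted p 6.16e-04), Gpam by 2.90 (SE 0.34, edgeR adjusted p 6.09e-04), Fam208b by 0.79 (SE 0.12, edgeR adjusted p 0.00141) and Slc39a14 by 0.89 (SE 0.15, edgeR adjusted p 0.00254). Tgfbr3 was higher by 0.64 (SE 0.11, edgeR adjusted p 0.00321) and Lrp1 by 0.68 (SE 0.12, edgeR adjusted p 0.00357). Zfp445, a zinc finger protein of imprinted genes, had 135 and 111 counts in knockout and none in either wild-type library.

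The 8 members lower in the day 0 knockout were mostly matrix and membrane genes. The log2 fold change of knockout over wild type was -0.88 (SE 0.10, edgeR adjusted p 6.08e-04) for Crispld1, -0.95 for Col13a1, -0.88 for Loxl2 and -0.76 for Col22a1. Thus 4 of the 7 matrix members were lower and none higher. Robo1, Sowahc, F2r and Hsd17b7 were the other lower members. Of the 36 listed collagen and matrix genes 8 were higher and 13 lower, and of 29 genes of the dystrophin complex and basal lamina receptors 17 were higher and 2 lower. The background for these counts, and for those of groups and marker lists below, is 14.8% of all genes higher and 12.6% lower. Of the 10 nuclear members 6 were higher and none lower, and of the 11 sterol, lipid and secretory members 6 were higher and 1 was lower. These groups were formed after the values were seen and are descriptions. The background is not matched for transcript length. In the longest length bin, described below, 36.9% of the genes that are not members were higher in the day 0 knockout. The groups and lists were not compared with genes of like length. Without 1 of the day 0 libraries the members called numbered 22 (knockout replicate 1), 16 (knockout replicate 2), 16 (wild-type replicate 1) or 21 (wild-type replicate 2). These are 25.6%, 18.6%, 18.6% and 24.4% of members, against 15.3%, 10.1%, 10.9% and 12.3% of all genes in the same settings. Of the 12 muscle stem cell markers 9 were lower in the day 0 knockout and none higher (sums of 681 and 655 TPM against 979 and 975 TPM), and all 7 tested red cell markers were lower (782 and 742 TPM against 3123 and 3130 TPM). Macrophage markers summed to 3521 and 3414 TPM in the day 0 knockout against 2039 and 2054 TPM in wild type, and Lyz2 alone was at 3509 and 3401 TPM against 2027 and 2043 TPM. Of the 12 tested macrophage markers 1 was called higher and none lower, with a median of -0.03, and Csf1r was at most 7.40 TPM in the 12 libraries. Smooth muscle markers, of which 4 of 9 were higher, summed to 10060 and 9876 TPM against 6751 and 6738 TPM, and the part of these cell types in the calls was not tested.

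**Figure D3:**
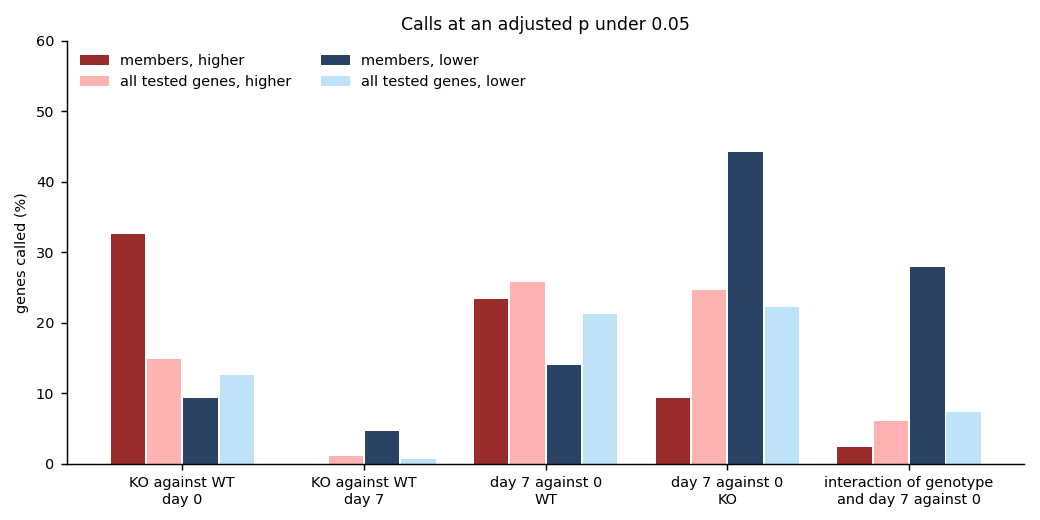
Share of genes called (vertical axis, percent, from 0) as higher or lower in 5 comparisons, for the 86 members and for all 15890 tested genes. Members were called higher in 32.6% and lower in 9.3% at day 0, and the day 7 against day 0 change of the knockout was called lower in 44.2% of members and 22.2% of all genes.

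From day 0 to day 7 in wild type, 32 members were called (37.2%) against a background of 47%. Of these, 20 rose (23.3% against 25.8%) and 12 fell (14% against 21.2%), so the members changed at about the rate of other genes or below it. In knockout 46 members were called (53.5%) against a background of 46.9%, with 8 that rose (9.3% against 24.7%) and 38 that fell (44.2% against 22.2%). With limma on log2(TPM + 1) 30 members were called, and their share of 34.9% lay below the 48.7% of all genes. The median log2 fold change of the members was 0.09 in wild type and -0.42 in knockout. Aim1 and Pde3b rose in both genotypes, 9 members fell in both, 7 rose in wild type and fell in knockout, and none did the opposite. The shares of all genes in these joint classes were not counted, so the counts are descriptions. Over all genes of the longest of 5 length bins, described below, the median was 0.1459 in wild type and -0.2455 in knockout. The knockout call of Pde3b was lost in 15 of 22 other settings. Aim1 (absent in melanoma) rose by 0.91 (SE 0.14, edgeR adjusted p 4.23e-04) in wild type and by 1.30 (SE 0.14, edgeR adjusted p 4.17e-05) in knockout. Prox1 rose by 0.94 (SE 0.10, edgeR adjusted p 4.43e-05) in wild type, and its change in knockout was 0.00 (SE 0.10, edgeR adjusted p 1.00). Lrp1 fell by 1.19 (SE 0.12, edgeR adjusted p 3.19e-05) in knockout and by 0.44 in wild type, and Crispld1 rose by 0.73 (SE 0.10, edgeR adjusted p 2.61e-04) in knockout. The wild-type change of Crispld1 was 0.24 (SE 0.10, edgeR adjusted p 0.0720), and its interaction of 0.48 (SE 0.15, edgeR adjusted p 0.0545) was not called. Marker sums of other cells also differed between these days: myofibre markers went from 124 to 189 TPM at day 0 to 3482 to 7208 TPM at day 7, and fibro-adipogenic markers from 10730 to 13042 TPM to 16764 to 18810 TPM. Schwann cell markers went from 1867 to 2343 TPM to 277 to 388 TPM, and smooth muscle markers from 6738 to 10060 TPM to 2663 to 3969 TPM. The macrophage sum went from 2039 to 3521 TPM to 397 to 669 TPM, while 10 of its 12 genes rose in wild type and 8 in knockout. All 7 red cell markers fell in wild type and 1 fell in knockout, with sums of 742 to 3130 TPM at day 0 and 329 to 1073 TPM at day 7. The part of these cells in the day 7 changes and in the interaction below was not tested.

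The difference between the genotypes in this change, the interaction, was called in 26 members (30.2%) against a background of 13.5%. It was negative in 24 (27.9% against 7.39%) and positive in 2 (2.33% against 6.08%), the matrix genes Loxl2, at 0.91 (SE 0.22, edgeR adjusted p 0.0271), and Col13a1, at 0.72 (SE 0.20, edgeR adjusted p 0.0437). In 22 other settings the call of Loxl2 was lost in 8 and that of Col13a1 in 15. The median over members was -0.52, and over all tested genes 0.01. The smallest adjusted p-value belonged to Mcc, which rose by 1.39 in wild type and fell by 0.85 in knockout. Its interaction was -2.23 (SE 0.21, edgeR adjusted p 6.79e-04). Gpam had an interaction of -4.05 (SE 0.46, edgeR adjusted p 0.00162), from 44 and 77 counts in wild type at day 0 and 440 and 411 at day 7, against 408 and 359 and then 261 and 90 in knockout. Tgfbr3, at -1.22 (SE 0.16, edgeR adjusted p 0.00265), Fam208b, at -1.19 (SE 0.16, edgeR adjusted p 0.00328), and Prox1, at -0.94 (SE 0.14, edgeR adjusted p 0.00444), were negative too. Of the 10 nuclear members, 7 were negative and 3 not called. Without 1 of the day 0 libraries 8 to 14 members were called (9.3% to 16.3%, against 3.52% to 6% of all genes). Without 1 of the wild-type libraries of day 7 it was 12 for replicate 1 (14% against 4.83%) or 10 for replicate 2 (11.6% against 5.2%). With an offset for gene length it was 15 (17.4% against 9.33%), and with limma on log2 TPM plus 1 or plus 0.1 it was 16 (18.6% against 9.72%) or 17 (19.8% against 9.56%). The comparisons of this paragraph and the previous ones share the day 0 libraries.

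**Figure D4:**
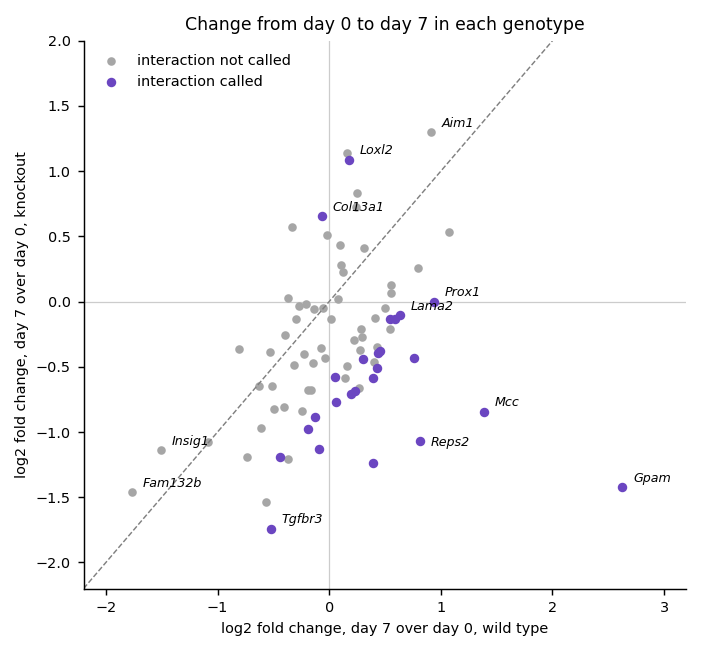
Log2 fold change of day 7 over day 0 in wild type (horizontal axis) and in knockout (vertical axis) for the 81 members whose counts reached 10 in all libraries. The dashed line marks equal change, and purple points are members with a called interaction, of which only Loxl2 and Col13a1 lie above the line. The calls of Loxl2 and Col13a1 did not hold in every other setting.

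At day 7 the knockout and wild type differed in 4 members, all lower in knockout (4.65% against 0.68% of all genes called lower, and 1.76% called either way). The log2 fold change of knockout over wild type was -0.98 (SE 0.15, edgeR adjusted p 0.0140) for Mcc and -0.59 (SE 0.10, edgeR adjusted p 0.0187) for Prox1. It was -0.54 (SE 0.10, edgeR adjusted p 0.0289) for Skil and -0.58 (SE 0.11, edgeR adjusted p 0.0362) for Tgfbr3. Of the 37 tested genes of the TGF-beta and BMP list, 2 were higher and 1 was lower in knockout at day 7, with a median of -0.04. The estimates were negative in 66 of the 86 members, with a median of -0.15 against 0.00 over all genes and -0.07 over the other genes of the longest of 5 length bins, described below. An unadjusted p under 0.05 was found for 29 of the 86 members and for 2268 of all 15890 genes. The count was 13 with DESeq2 (15.1% against 4.95% of all genes) and 0 with limma on log2(TPM + 1), which called 0.989% of all genes, and 0 members were called without either wild-type library of day 7 or without knockout replicate 2 of that day, where 0.0909% to 0.728% of all genes were called. With an offset for gene length it was 2 (2.33% against 1.04%), with limma on the batch-corrected values 10 (11.6% against 3.79%) and with the day 0 and day 7 libraries alone 16 (18.6% against 7.46%). Leaving out knockout replicate 1 of day 7 gave 1 (1.16% against 0.401%), either knockout library of day 0 gave 2 (2.33% against 0.799% to 0.806%), and either wild-type library of day 21 gave 8 (9.3% against 3.68% to 3.76%).

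At day 21 no member was called between the labelled genotypes by edgeR, against a background of 0.0126%. An unadjusted p under 0.05 was found for 10 of the 86 members and for 2259 of all 15890 genes, so the members' share was not above that of all genes. DESeq2 called 3, against 2.96% of all genes. Leaving out the library labelled wild-type replicate 1 gave 4 by edgeR (4.65% of members against 5.24% of all genes), and leaving out knockout replicate 1 gave 1 (1.16% against 1.65%). The estimates were positive in 59 members and negative in 27, with a median of 0.11 against 0.00 over all genes, and the labels of knockout replicate 2, highest in 54 members, are in doubt. With both libraries that Sesn2 sets against their labels left out, which leaves 1 library a genotype and assumes that each varies like the other groups, 9 members (10.5%) were called against 7.29% of all genes.

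The members' transcripts were long. Their longest annotated transcript had a median of 6229 bases, against 3276 bases over the tested genes, 2305 bases over the genes highest at day 0 and 2680 bases over those highest at day 7. Their transcripts had a median of 14.5 exons against 7 and a GC content of 46.4% against 49.9%. When genes of at least 2 TPM at day 21 were split by length into 5 bins of equal size, the longest bin held 57 members (2.67% of its genes) and the shortest held 4 (0.187%).

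Among all genes of these bins, which were chosen on their day 21 level, the median log2 ratio of day 21 over the other days went from -0.33 in the shortest bin to 0.37 in the longest. The median log2 fold change of knockout over wild type at day 0 went from -0.245 to 0.33, and the median interaction went from 0.31 to -0.39. Within the longest bin, 38.6% of the 57 members and 36.9% of the 2079 other genes were higher in the day 0 knockout. In the same bin 43.9% of members and 40.1% of others fell by day 7 in knockout, and 35.1% and 23.3% had a negative interaction. The members' rates at day 0 and in the knockout's fall by day 7 were thus near those of other long genes. The labels report intact RNA for all libraries, and the part of RNA quality or of amplification in the link with length was not tested.

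**Figure D5:**
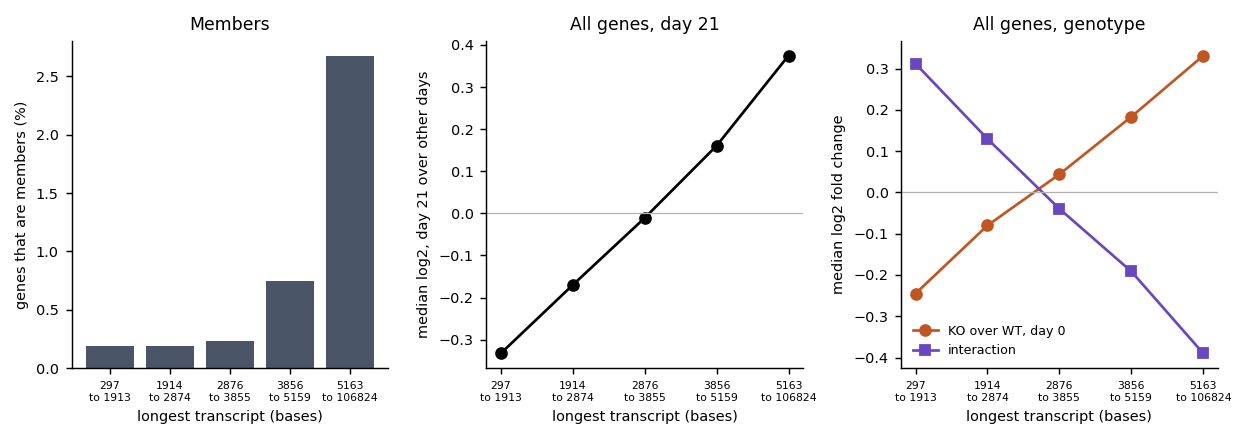
Genes with at least 2 TPM in every day 21 library in 5 bins by the length of their longest annotated transcript (horizontal axes, bases). From left to right, the percentage that are members, the median log2 ratio of day 21 over the other days, and the median log2 fold change of knockout over wild type at day 0 with the median interaction, which runs from 0.31 in the shortest to -0.39 in the longest bin.

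Of the 86 members 81 are annotated as protein coding and 5 as pseudogenes. The pseudogenes share much of their sequence with another gene, so that reads could be assigned to either. Tcea1-ps1, a processed pseudogene with the largest ratio of all, 4.48, matches the elongation factor gene Tcea1 at 99.3% over its whole length. It had no counts in any day 7 library and 111 to 243 counts at day 21. Gm4617 matches Ptma at 99.1%, Gm5446 matches Srsf10 at 98.8% and Gm9864 matches the pseudogene Gm10040 at 97.1%. H2-Q10 shares a stretch with H2-K1, and Pcdhgb4 shares its 3′ exons with Pcdhgc4, so their values are uncertain too. Gprasp1 and Gprasp2, sorting proteins for G protein-coupled receptors, lie 35560 bases apart on chromosome X and were at 24.4 to 26.1 and 37.2 to 44.5 TPM at day 21. These 2 genes share 388 bases at 99.5%, and Gm28036 matches transcripts of Cpne1 and Rbm12 at 100%, so their values are uncertain too.

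The membership itself rests on the lowest day 21 library. Without the library labelled wild-type replicate 2 the rule gave 188 genes, and without both libraries in doubt it gave 142. All 86 members had their 4 day 21 values above the 8 others in the batch-corrected table as well, and 64 kept a difference of 1.5-fold there. On CPM, read counts scaled by library alone, which do not divide by transcript length, 87 genes passed and 60 of the 86 members were among them.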

How the data were processed

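RNA-seq of sorted muscle stem cells was analysed in 12 libraries of 6 groups. Per the submitters' processing notes, kallisto 0.46.1 and the build GRCm38.p6 (mm10) were used. The authors deposited estimated counts per gene, which need not be whole. They also deposited TPM for the same 30154 genes, and batch-corrected regularised log2 values whose batch is not named in the labels. Columns were matched to samples by name.

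Members were found on the TPM table. Estimated counts were rounded, filtered with filterByExpr, scaled by TMM (factors 0.915 to 1.09) and fitted with edgeR 4.0.16 in R 4.3.3, with 1 mean per group and robust quasi-likelihood tests. The 15890 genes tested were adjusted together. DESeq2 1.42.0 and limma 3.58.1 were alternatives, as were other size factors and filters, an offset for gene length, the replicate number as a block, the deposited log2 values and leaving out each library. The tools were tested on simulated data. Annotation came from GENCODE M21, which held all members, and near copies were sought with BLAST 2.17.0. Promoters are RefSeq's. Replicate numbers did not pair the libraries, as the correlation of deviations ran from -0.143 to 0.07 over 15 pairs of groups.

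The members, the lists and the tests were chosen with earlier results of these data known. The text names members with the largest ratios or levels, the called members with the smallest adjusted p-values, members of lists and those next to the threshold. Groups by role, and the genes named in them outside that rule, were chosen after their values were seen. Values of a few genes are not reported here. Depth is the total count per library, and precision is limited by 2 libraries a group.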

Additional observations from a re-analysis of the deposited data

Results flagged for a closer look

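The change from day 0 to day 7 differed between the genotypes in 25 named members by edgeR's interaction test. The interactions, as log2 differences of knockout minus wild type, were -2.23 for Mcc, -4.05 for Gpam, -1.22 for Tgfbr3, -1.19 for Fam208b, -0.936 for Prox1 and -0.983 for Lemd3. Nup153 was at -0.939, Ahctf1 at -0.921, Tgoln1 at -0.624, Reps2 at -1.88, Ttbk2 at -1.64 and Lrp1 at -0.752. Ahnak was at -0.793, Ankfy1 at -0.904, Mfsd4 at -0.834, Zfhx4 at -0.833, Tenm3 at -1.04 and Lama2 at -0.74. Pogk was at -0.752, Arhgap21 at -0.745, Dnajc27 at -0.831 and Atf6 at -0.724. Loxl2 at 0.912 and Col13a1 at 0.719 were the positive ones. Some of these calls depended on the setting. In 22 other settings the call was lost in 15 for Col13a1, 12 for Atf6, 12 for Lama2 and 8 for Loxl2. It was lost in 0 for Mcc, Gpam, Tgfbr3, Fam208b, Prox1 and Lemd3. Zfp445 was at -10.8, an estimate that depends on the prior count, since both wild-type libraries of day 0 had 0 counts.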

How the results depend on the processing

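The rule gave 271 genes at the looser ratio and 16 at a ratio of 2, 142 without both libraries in doubt (chosen after seeing the data), and 87 to 188 with 1 library left out. Members called, KO against WT at day 0, numbered 16 to 40 with 1 library left out (10.1% to 31.4% of all genes). At day 7 they numbered 13 with DESeq2, 2 with an offset for gene length (2.33% against 1.04% of all genes), 0 and 1 with limma on log2 TPM plus 1 and plus 0.1, 10 with limma on the batch-corrected values (11.6% against 3.79%), 16 (18.6% against 7.46%) on the day 0 and day 7 libraries alone (chosen after seeing the data) and 0 to 8 with 1 library left out. At day 21 by label they numbered 3 with DESeq2, 9 without the libraries in doubt and 0 to 4 with 1 library left out, where 4 came without wild-type replicate 1. The change by day 7 in knockout was called in 30 with limma on log2(TPM + 1), 34.9% against 48.7% of all genes. The interaction was called in 15 with the length offset, 16 and 17 with limma on log2 TPM plus 1 and plus 0.1 (18.6% against 9.72% and 19.8% against 9.56%), and 8 to 31 with 1 library left out (3.52% to 17.3% of all genes). Other counts stayed within 1.5 times. With the replicate block the counts were 35, 4, 0, 30, 46 and 25, in the order of day 0, day 7, day 21, wild type, knockout and interaction, against 25.7%, 1.28%, 0.00629%, 45.3%, 45.5% and 11.3% of all genes. Of single-gene values under these settings, 2485 kept their call, 503 lost it and none changed sign. The cause of these shifts was not tested, and with 2 libraries a group small differences were not detectable.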

Other observations

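The fall of Insig1 and Hsd17b7 by day 7 was shared by other genes of cholesterol synthesis. A list of 25 genes of that pathway and its control was drawn up after these members were seen, so its counts are a description. From day 0 to day 7 in wild type 20 of the 25 fell and 1, the sterol sensor gene Scap, rose, with a median log2 fold change of -0.812, where 21.2% of all genes fell and 25.8% rose. In knockout 13 fell and 1, Dhcr7, rose, with a median of -0.656, where 22.2% of all genes fell and 24.7% rose. Sqle, the epoxidase of squalene, fell by 1.92 (SE 0.12, edgeR adjusted p 2.08e-06) in wild type and fell by 1.12 (SE 0.12, edgeR adjusted p 3.64e-05) in knockout. Idi1, an isomerase early in the pathway, fell by 2.27 and fell by 1.71. All 4 day 21 values lay above the 8 others in 8 of the 25, of which 2 are the members that the rule chose on these values. Cyp51, Fdps, Lss, Sqle and Srebf2 were among the others, without passing the ratio of the rule.

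At day 0, 11 of these 25 genes were lower in knockout and 1 was higher, with a median of -0.402, where 12.6% of all genes were lower and 14.8% higher. The interaction was positive in 8 and negative in 1, against 6.08% and 7.39% of all genes. Fdft1, squalene synthase, had an interaction of 1.42 (SE 0.21, edgeR adjusted p 0.00439).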
